A study of Homo sapiens with 16 samples.

Results

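The integrin alpha chains, integrin beta chains and laminin chains were followed while H9, an established line of human embryonic stem cells, differentiated in activin A. A gene belonged to the set if its symbol named such a chain, whatever its values were. RefSeq holds 38 such genes. Of these, 35 had a row in the deposited table of 18495 rows (exon array probe sets summarised per gene), and 30 had a row of their own, namely 13 alpha chains, 8 beta chains and 9 laminin chains. Another 5 (ITGA1, ITGA4, ITGAE, ITGAM and LAMB3) were matched only to rows that carry several symbols, so they are counted without values, and the remaining 3 were not analysed here. Levels are log2(intensity + 1), intensity being the deposited gene-level value on a linear scale. On that scale 10 of the 30 genes (ITGA8, ITGA10, ITGAL, ITGAX, ITGB2, ITGB3, ITGB6, ITGB7, LAMA4 and LAMB4) lay among the dimmest 25% of all rows by mean level, at or below 5.83.

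RNA of 14 biological samples was hybridised to Human Exon 1.0 ST arrays. Day 0 comprised 4 samples of undifferentiated cells kept on mouse embryonic fibroblast feeders or on Matrigel, a basement membrane extract rich in laminin, in feeder-conditioned medium with 8 ng/ml basic FGF. The other samples had been in RPMI-1640 with 100 ng/ml activin A for 1 day (3 samples), 3 days (3 samples) or 5 days (4 samples), while fetal bovine serum was raised from 0 to 0.2% and 2%. Activin A, a ligand of the nodal pathway, and the change of medium and serum therefore coincide with time and cannot be told apart. The labels do not say which day 0 samples grew on feeders and which on Matrigel, and call the samples biological replicates without saying whether they were separate cultures, so p-values measure the spread between these samples.

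Integrins are membrane receptors made of an alpha and a beta chain that tie the cytoskeleton to the matrix outside the cell, and the alpha chain largely sets which ligand is bound. Laminins are trimers of an alpha, a beta and a gamma chain that form the sheet of the basement membrane on which epithelia, the epiblast among them, rest. The chain pair of ITGA6 and ITGB1 is known as a laminin receptor of human embryonic stem cells, and that of ITGA5 and ITGB1 as the classical fibronectin receptor.

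The labelled cell states were checked with marker genes. At day 5 all 6 definitive endoderm markers (SOX17, FOXA2, CXCR4, GATA6, CER1 and GATA4) were higher than at day 0 by the limma test described below, and 4 of 8 measured pluripotency markers (9 listed) were lower. Of the 5 primitive streak markers 3 were higher and 1 was lower. At day 1 and at day 3 with all samples, 0 of these markers passed, where 0.00541% and 0.027% of all rows did. Without day 3 replicate 2, 4 of 5 streak markers were higher at day 1 (0.249% of all rows passed). At day 3, 6 of 6 endoderm and 3 of 5 streak markers were then higher and 3 of 8 pluripotency markers lower (3.19%). A library of day 3, replicate 2, lay farthest from its group, correlating with it at a median r of 0.83 and having a SOX17 level of 5.52 where the rest of day 3 had 11.21 and 11.37. Day 5 replicate 2 came next (0.858, against 0.901 to 0.962 for the remaining samples). In contrast to day 3 replicate 2, it had high SOX17 and CXCR4 levels, 10.25 and 13.25. The rest of day 5 had 11.17 to 11.74 and 13.01 to 13.62, and day 3 replicate 2 had a CXCR4 level of 7.58. Many results of the set are therefore also given with either library left out. All groups share an estimate of the spread. In comparisons that do not involve day 3, leaving out day 3 replicate 2 thus changes the SE and the p-value but not the difference. Leaving out both libraries together was added after seeing the data. For the genes of other lists, no values without day 5 replicate 2 are given. Of the lists of other cell types, 3 had 1 gene each that rose at day 5, with list medians near 0. PAX6 rose by 4.34 on the log2 scale (neural median 0.03, 2 of 3 above 0, DCX at -1.07 with an adjusted p of 0.0743). LUM rose by 4.57 (mesenchyme median 0.16, 4 of 8 above 0, COL1A1 at -1.80 with 0.184). APOA1 rose by 4.37 (extraembryonic endoderm median 0.10, 3 of 6 above 0). PAX6 and LUM were both highest in day 5 replicate 2, at 9.90 and 10.81. The mean level of the 3 measured neural markers ran from 4.97 to 5.37 over the day 0 samples and from 5.96 to 6.72 over the day 5 samples, that of the 8 mesenchyme markers from 5.95 to 6.63 and from 6.55 to 7.22, and that of the 6 extraembryonic endoderm markers from 5.61 to 6.42 and from 6.47 to 7.07. LCP1 of the 5 leukocyte markers fell by 1.39 and KDR of the 5 endothelial markers fell by 1.23. No platelet (3 measured), basal epithelium (2), muscle (3) or trophoblast (5) marker passed the test at day 5. The part of other cell types in the integrin and laminin values was not tested.

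The set was placed against all rows first. With limma and Benjamini-Hochberg adjustment over all rows, 2 of the 35 genes passed an adjusted p of 0.05 at day 5 against day 0, ITGA6 and LAMA2, both lower, where 5.46% of all rows passed and 2.89% were lower (6 of 35 against 17.2% at an unadjusted p under 0.05). At day 1 against day 0, 0 of 35 passed (0.00541% of all rows, and 7 of 35 against 6.03% of rows at an unadjusted p under 0.05). At day 3 against day 0, 0 of 35 passed (0.0270% of all rows, and 1 of 35 against 8.56% at an unadjusted p under 0.05). At day 5 against day 1, 1 of 35 passed, on a row with several symbols, against 3.33% of all rows and 2.00% higher (6 of 35 against 14.5% at an unadjusted p under 0.05). The 3 comparisons with day 0 share the same control samples.

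The median log2 difference of the 30 genes was -0.25 at day 1 against day 0 (0.03 over all rows), -0.05 at day 3 (-0.01), 0.10 at day 5 (-0.02) and 0.21 at day 5 against day 1 (-0.06). Without day 3 replicate 2 the day 3 median was 0.23 (-0.03 over all rows), with 20 of 30 genes above 0 in place of 13. The differences at day 5 against day 0 nonetheless ran from -1.72 (ITGA6) to 1.32 (ITGA5), with 17 of 30 above 0. Alpha chains, beta chains and laminins thus each lay on both sides of 0 at day 5. The 8 beta chains lay between -0.20 and 0.70, 6 above 0 and 2 below. Of these, ITGB2, ITGB3, ITGB6 and ITGB7 were among the dimmest 25% of rows. These are array signals of whole cultures, in which fewer cells of a type and less RNA per cell cannot be told apart.

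**Figure D1:**
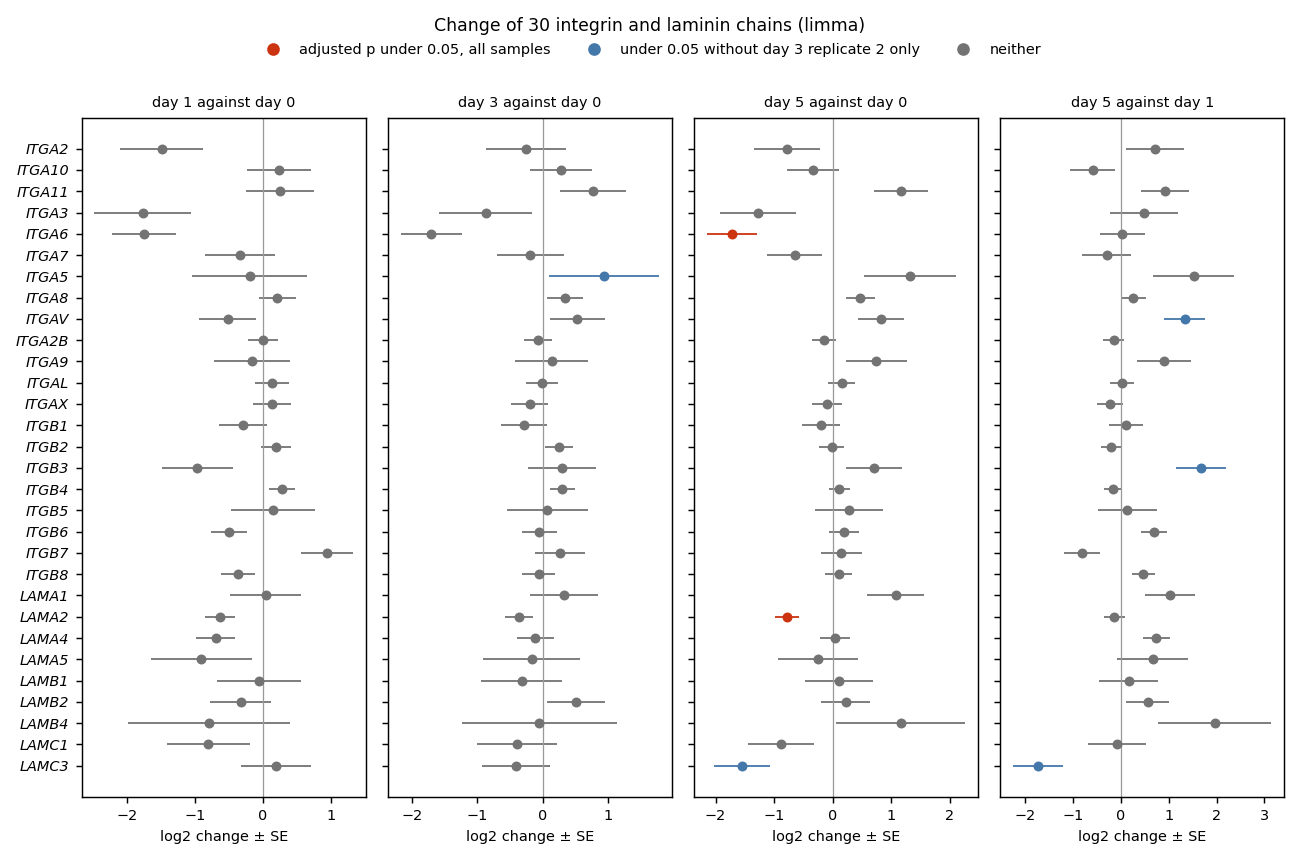
Log2 difference ± SE (limma) of the 30 integrin and laminin genes in 4 comparisons, in order of role, with red points for an adjusted p under 0.05 with all samples, blue for those under 0.05 only without day 3 replicate 2, and grey for neither. Red points appear only for ITGA6 and LAMA2 at day 5 against day 0, at -1.72 and -0.78.

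The laminin-binding alpha chains ITGA3, ITGA6 and ITGA7 pair with ITGB1 or, for ITGA6, also with ITGB4. ITGA6 stood at 11.34, 11.59, 11.08 and 12.15 in the 4 day 0 samples. It stood at 10.11, 9.95 and 9.30 at day 1, and at 9.72, 10.27 and 9.55 at day 3. At day 5 its levels were 9.82, 8.58, 9.84 and 11.03. Every sample with activin lay below every day 0 sample, and day 5 differed from day 1 by 0.03 ± 0.47 (adjusted p 0.99). Against day 0, ITGA6 fell by 1.72 ± 0.43 (SE) on the log2 scale at day 5, 3.30-fold (limma adjusted p 0.0358), from 11.54 ± 0.46 (SD, n = 4) to 9.82 ± 1.00 (n = 4). The differences at day 1 (-1.75 ± 0.47, adjusted p 0.293) and day 3 (-1.70 ± 0.47, 0.232) were of like size but did not pass the test. Without day 3 and day 5 replicate 2 together the difference at day 5 was -1.31 (0.0377) and that at day 3 was -1.91 (0.0184). The day 5 call was lost without any 1 of the day 0 samples (adjusted p 0.0785, 0.0939, 0.0513 and 0.109 without replicates 1 to 4), without day 5 replicate 1, 2 or 3 (0.0861, 0.0723 and 0.0741), without day 1 replicate 1 (0.0511) or day 3 replicate 1 (0.0502), and when only the day 0 and day 5 samples were fitted (0.0813). The difference lay between -1.88 and -1.31 in all of these.

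The sequence before the start of ITGA6 is shown because ITGA6 passed the test with all samples, next to that of LAMA2, the other gene that did, and that of ITGA5, whose difference of 1.32 at day 5 was above 0 but did not pass (adjusted p 0.449). Each is the stretch of 250 bases just before a RefSeq start, on build GRCh38.p14 and on the strand of the gene, at chr2:172427086-172427335 (plus strand, 1 of 2 starts listed for ITGA6), chr6:128882888-128883137 (plus strand) and chr12:54419267-54419516 (minus strand). Capitals mark matches, on either strand, to the strings searched.
ITGA6: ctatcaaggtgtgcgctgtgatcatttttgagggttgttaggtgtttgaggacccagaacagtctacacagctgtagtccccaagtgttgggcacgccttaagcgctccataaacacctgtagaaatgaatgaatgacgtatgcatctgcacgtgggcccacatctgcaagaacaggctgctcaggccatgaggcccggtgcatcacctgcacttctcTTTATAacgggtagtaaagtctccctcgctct
LAMA2: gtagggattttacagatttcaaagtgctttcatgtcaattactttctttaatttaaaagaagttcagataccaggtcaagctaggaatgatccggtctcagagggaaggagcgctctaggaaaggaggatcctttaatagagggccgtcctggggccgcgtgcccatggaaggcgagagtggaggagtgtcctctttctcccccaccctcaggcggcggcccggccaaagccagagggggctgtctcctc
ITGA5: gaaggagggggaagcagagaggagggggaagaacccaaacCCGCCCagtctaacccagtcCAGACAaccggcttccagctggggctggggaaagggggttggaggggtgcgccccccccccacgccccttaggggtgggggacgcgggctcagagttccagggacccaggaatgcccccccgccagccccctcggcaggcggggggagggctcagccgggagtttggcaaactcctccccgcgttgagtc
None of the strings contains another, and 20 of the 30 genes had a window in the RefSeq table, to be set against all 34943 windows of this length. The string TATAAA of the core promoter was in 1 of the 20 windows, that of ITGA6, where it reads TTTATA on the strand shown, against 10.8% of all windows. CAGACA, bound by the SMAD proteins that carry the activin signal, was in 2 of 20 (ITGA5 and LAMA4), against 13.6%. GGGCGG, bound by SP1, was in 10 of 20, that of ITGA5 included, against 42.5%. CCAAT, bound by NFY, was in 4 of 20, against 32.0%. AGATAA, bound by GATA factors, was in 1 of 20 (LAMA4), against 9.19%. GTGTGA, bound by T-box factors such as EOMES, was in 0 of 20, against 9.89%. The LAMA2 window held none of them. GC content was 50.8% for ITGA6, 70.0% for ITGA5 and 53.2% for LAMA2, beside a median of 58.0% over all windows. A match describes letters only, and no binding was measured.

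ITGA3, which binds laminins of epithelial basement membranes, stood at 9.10, 9.34, 9.63 and 10.82 at day 0 and at 8.19, 7.73 and 7.94 at day 1. Its day 3 levels were 9.26, 8.16 and 9.13, and those at day 5 were 8.44, 6.24, 8.99 and 10.11. The day 1 samples all lay below day 0, as for ITGA6, whereas days 3 and 5 overlapped with day 0. The differences were -1.77 ± 0.71 at day 1 (adjusted p 0.698) and -1.28 ± 0.65 at day 5 (0.361), and the latter was -0.54 (0.567) without day 3 and day 5 replicate 2. ITGA7, a laminin receptor of muscle, ranged from 7.55 to 8.22 at day 0 and from 5.87 to 8.22 at day 5 (difference -0.65 ± 0.47, 0.570).

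The alpha chains that recognise the RGD sequence of fibronectin and vitronectin are ITGA5, ITGA8, ITGAV and ITGA2B. ITGA5 stood at 9.20, 9.05, 9.45 and 10.17 at day 0 and at 9.10, 8.70 and 10.01 at day 1. At day 3 replicates 1 and 3 were at 11.77 and 11.72 and replicate 2 at 7.72, the lowest of the 14 samples. Day 5 levels were 10.89, 9.42, 11.42 and 11.43. Apart from replicate 2 on either day, the day 3 and day 5 samples exceeded each of those of days 0 and 1, and with replicate 2 the groups overlapped. The difference from day 0 was 0.94 ± 0.84 at day 3 (adjusted p 0.851) and 1.32 ± 0.78 at day 5 (0.449). Without day 3 replicate 2, ITGA5 rose by 2.28 ± 0.55 at day 3 (0.0439), the 1 gene of 35 to pass there, against 3.19% of all rows and 2.05% higher, while day 5 did not pass (1.32 ± 0.45, 0.0986). Without day 3 and day 5 replicate 2 together, a setting added after seeing the data, the difference at day 5 was 1.77 (0.00673). Both samples left out held the lowest ITGA5 level of their day.

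ITGAV, the alpha chain of the vitronectin receptors, ranged from 10.64 to 11.94 at day 0, from 10.44 to 10.66 at day 1, from 10.65 to 12.24 at day 3 and from 11.10 to 12.26 at day 5. The day 5 samples did not overlap with those of day 1. That difference was 1.33 ± 0.42 (adjusted p 0.122). Without day 3 replicate 2, a sample of neither group, it was still 1.33 and passed with a smaller SE of 0.35 (0.0446). Against day 0 the difference at day 5 was 0.82 ± 0.39 (0.313), and 1.06 (0.0448) without day 3 and day 5 replicate 2. ITGA8, a receptor of nephronectin, and ITGA2B, the platelet fibrinogen receptor chain, differed from day 0 by 0.47 ± 0.25 (0.385) and -0.15 ± 0.20 (0.785) at day 5, and ITGA8 was among the dimmest rows.

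**Figure D2:**
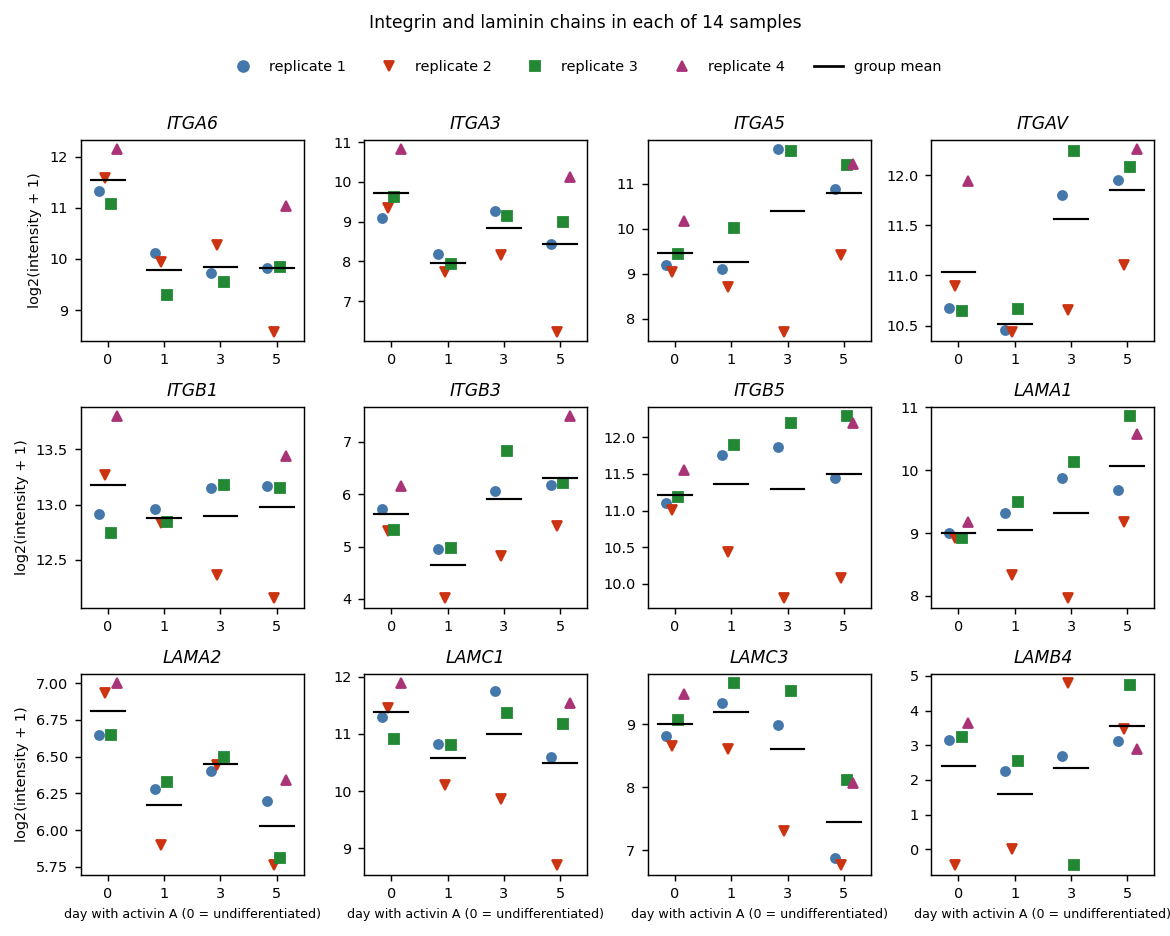
Levels, as log2(intensity + 1), of 12 integrin and laminin genes in each of the 14 samples by day, with a marker for each replicate number and a bar at the group mean; the vertical axes differ between genes. The group mean of ITGA6 is 11.54 at day 0 and 9.79 at day 1, and the red triangles of day 3 and day 5 replicate 2 lie lowest of their group for ITGA5, ITGB1 and ITGB5.

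Collagen-binding alpha chains with their own row were ITGA2, ITGA10 and ITGA11. ITGA2, a collagen receptor of epithelia and platelets, ranged from 8.24 to 10.30 at day 0 and from 6.92 to 7.89 at day 1, without overlap (-1.49 ± 0.61, adjusted p 0.716), and overlapped with day 0 later. ITGA11, a receptor of mesenchymal cells for fibrillar collagen, kept within 5.25 and 5.44 at day 0 and stood at 6.61, 4.95, 6.89 and 7.74 at day 5. Replicate 2 was again the low sample. The difference was 1.17 ± 0.46 (0.195), and without day 5 replicate 2 it rose by 1.70 (0.0104). ITGA10, a chondrocyte receptor, differed by -0.34 ± 0.44 (0.767). ITGA9, which binds tenascin and VCAM1, ranged from 7.79 to 8.76 at day 0 and from 7.68 to 9.67 at day 5 (0.74 ± 0.52, 0.550, and 1.12, 0.0493, without day 3 and day 5 replicate 2). The leukocyte chains ITGAL and ITGAX were both dim, between 4.52 and 5.59 in all samples, and differed by 0.15 ± 0.23 and -0.10 ± 0.26 at day 5.

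Among the beta chains, ITGB1, the partner of most matrix-binding alpha chains, stood at 12.91, 13.27, 12.74 and 13.80 at day 0 and at 12.96, 12.83 and 12.84 at day 1. Its day 3 levels were 13.15, 12.36 and 13.18, and those at day 5 were 13.17, 12.15, 13.15 and 13.44. The groups overlapped in each comparison, and replicate 2 was the low sample at days 3 and 5. The difference at day 5 was -0.20 ± 0.32 (adjusted p 0.819), so the shared partner chain showed no difference past the test while ITGA6 fell.

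ITGB3, which pairs with ITGAV or ITGA2B, stood at 5.71, 5.29, 5.31 and 6.16 at day 0 and at 4.96, 4.01 and 4.97 at day 1. It stood at 6.06, 4.82 and 6.82 at day 3 and at 6.17, 5.40, 6.21 and 7.49 at day 5. Day 1 lay below both day 0 and day 5 without overlap. The difference between day 5 and day 1 was 1.67 ± 0.52 (adjusted p 0.116). Without day 3 replicate 2, a sample of neither group, ITGB3 rose by the same 1.67 with a smaller SE of 0.45 (0.0474). Without that library 4 of 35 genes passed at day 5 against day 1 (3 higher and 1 lower), against 6.11% of all rows, 3.54% higher and 2.57% lower, ITGAV and ITGB3 among them.

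ITGB5, another ITGAV partner, stood at 11.11, 11.01, 11.18 and 11.56 at day 0 and at 11.76, 10.43 and 11.90 at day 1. Its day 3 levels were 11.87, 9.80 and 12.20, and those at day 5 were 11.44, 10.08, 12.29 and 12.19. Replicate 2 lay below all day 0 samples on each of the days with activin, and 6 of the other 7 samples lay above them. The difference at day 5 was 0.28 ± 0.58 (adjusted p 0.862), and 0.76 (0.245) without day 3 and day 5 replicate 2. ITGB7, a chain of lymphocyte integrins, ranged from 4.47 to 4.84 at day 0 and from 5.07 to 5.77 at day 1 (0.94 ± 0.38, 0.713), and ITGB4, the hemidesmosome partner of ITGA6, from 6.30 to 6.54 and from 6.57 to 6.85 (0.28 ± 0.19, 1.00). The leukocyte chain ITGB2 and the TGF-beta activating chains ITGB6 and ITGB8 differed from day 0 by -0.02, 0.19 and 0.10 at day 5.

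Laminin chains are the ligands of ITGA3, ITGA6 and ITGA7. LAMA2, the alpha chain of muscle and nerve basement membranes, stood at 6.65, 6.93, 6.65 and 7.0 at day 0 and at 6.28, 5.90 and 6.33 at day 1. It stood at 6.40, 6.44 and 6.50 at day 3 and at 6.20, 5.76, 5.81 and 6.34 at day 5. As for ITGA6, all samples with activin lay below all day 0 samples. LAMA2 fell by 0.78 ± 0.21 at day 5, 1.72-fold (limma adjusted p 0.0444). The differences were -0.64 ± 0.22 at day 1 (0.579) and -0.36 ± 0.22 at day 3 (0.730). The call was lost without any 1 of the day 0 samples (0.0850, 0.129, 0.0699 and 0.127 without replicates 1 to 4), without day 1 replicate 1 (0.0708) or 3 (0.0631), day 3 replicate 1 (0.0617) or 3 (0.0583) or day 5 replicate 1, 2 or 3 (0.0732, 0.101 and 0.117), when only the day 0 and day 5 samples were fitted (0.0933) and with a variance trend and robust eBayes (0.0630). The difference stayed between -0.84 and -0.69 in all of these. LAMA2 levels at day 5 in replicates 2 and 3 lay below 5.83, the upper bound of the dimmest 25% of rows. With a pseudocount of 16 the LAMA2 difference at day 5 was -0.66 (0.0478).

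LAMC3, a gamma chain found in skin, retina and brain, stood at 8.81, 8.65, 9.07 and 9.48 at day 0 and at 9.34, 8.60 and 9.65 at day 1. Its day 3 levels were 8.99, 7.30 and 9.53, and those at day 5 were 6.87, 6.76, 8.11 and 8.07. Here the low group was day 5, whose samples all lay below those of days 0 and 1, whereas ITGA6 and LAMA2 had no overlap with day 0 at day 1 already. The difference from day 0 was -1.55 ± 0.48 (adjusted p 0.0863) and that from day 1 was -1.74 ± 0.52 (0.0967). Without day 3 replicate 2, LAMC3 fell by 1.55 ± 0.37 against day 0 (0.0203) and fell by 1.74 ± 0.40 against day 1 (0.0215), and 3 of 35 genes passed at day 5 against day 0 (ITGA6, LAMA2 and LAMC3, all lower), against 8.73% of all rows and 4.66% lower. Day 1 against day 0 then gave 0 of 35, against 0.249% of all rows. When only the day 0 and day 5 samples were fitted, LAMC3 was the gene of the set that passed (0.0483).

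LAMA1, the alpha chain of the first embryonic basement membranes, stood at 9.0, 8.92, 8.92 and 9.18 at day 0 and at 9.32, 8.33 and 9.49 at day 1. It stood at 9.88, 7.96 and 10.13 at day 3 and at 9.68, 9.18, 10.86 and 10.57 at day 5. Of days 3 and 5, only the replicate 2 samples reached down to the day 0 levels. The difference at day 5 was 1.07 ± 0.48 (adjusted p 0.282). It was 1.36 (0.0209) without day 3 and day 5 replicate 2, a setting added after seeing the data. LAMB4, a beta chain with a low signal here, is listed at the lowest value of the table (-0.46) in day 0 replicate 2 and day 3 replicate 3 and ranged up to 4.79, so its difference of 1.16 ± 1.10 (0.674) has no interpretable size.

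The other laminin chains did not pass with all samples. LAMA4, a chain of vessel walls, ranged from 5.71 to 6.02 at day 0 and from 5.02 to 5.32 at day 1 (-0.70 ± 0.28, adjusted p 0.698) and stood between 5.33 and 6.30 at day 5. LAMC1, the common gamma chain, ranged from 10.92 to 11.89 at day 0 and from 10.11 to 10.83 at day 1 (-0.81 ± 0.61, 1.00). LAMA5 and LAMB1, chains of the laminins widespread in epithelia, differed from day 0 by -0.25 ± 0.68 and 0.10 ± 0.58 at day 5. LAMB2, a beta chain of kidney and synapse, differed by 0.22 ± 0.42, and at day 3 it was at 10.09, 8.49 and 10.24 against 8.85 to 9.38 at day 0 (0.51 ± 0.45, 0.850, and 1.07, 0.0313, without day 3 and day 5 replicate 2).

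**Figure D3:**
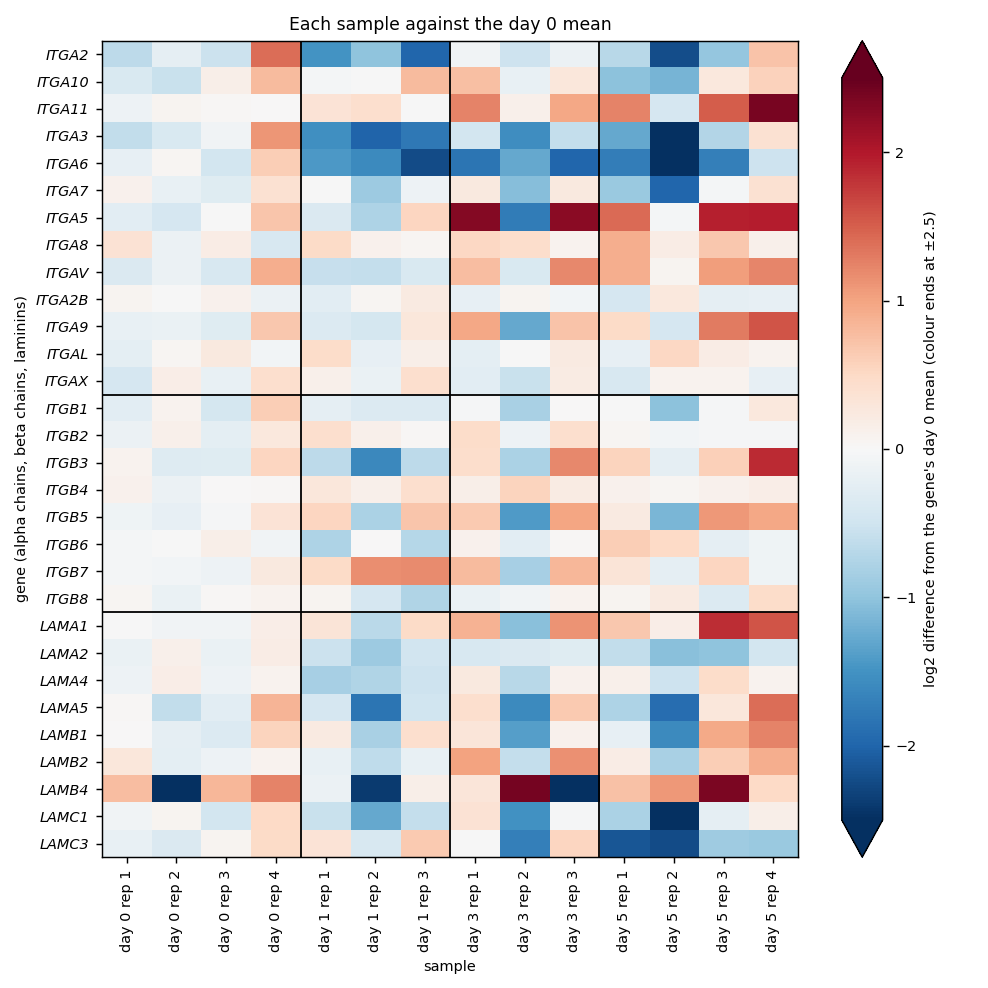
Difference of each of the 14 samples from the day 0 mean of the gene (log2, colour from blue for lower to red for higher, ending at ±2.5) for the 30 genes, with black lines between days and between alpha chains, beta chains and laminins. ITGA6 and LAMA2 are blue in every sample with activin, and ITGA5 is dark red in day 3 replicates 1 and 3 and blue in replicate 2.

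Separation of groups without regard to the spread gave a related picture. At day 1 against day 0 the samples of 9 of 35 genes did not overlap, 7 lower (ITGA2, ITGA3, ITGA6, ITGB3, LAMA2, LAMA4 and LAMC1) and 2 higher (ITGB4 and ITGB7), while 11.5% of all rows did not overlap, 6.62% lower and 4.86% higher. At day 3 against day 0 there were 4 of 35 (ITGA11 and ITGB4 higher, ITGA6 and LAMA2 lower, against 9.82% of all rows, 3.27% higher and 6.55% lower). At day 5 against day 0 there were 3 of 35, all lower (ITGA6, LAMA2 and LAMC3), against 14.6% of all rows and 8.57% lower. At day 5 against day 1 there were 6 of 35, of which ITGAV, ITGB3, LAMA4 and LAMB4 were higher and LAMC3 lower, against 16.1% of all rows, 7.08% higher and 9.06% lower. The day 1 share was above that of all rows, while the day 3 and day 5 shares against day 0 were near or below it, and none of these shares was tested.

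Some samples were the lowest or the highest of their group for many genes of the set. Replicate 2 was the lowest sample of its group for 19 of the 30 genes at day 1 (42.1% of all rows), 22 at day 3 (44.8%) and 23 at day 5 (39.0%). At day 0 replicate 2 was the lowest for 10 of 30 (21.8% of all rows) and replicate 3 for 11 (28.9%). Replicate 4 was the highest for 22 of 30 at day 0 (26.2% of all rows) and 18 of 30 at day 5 (22.2%). Deviations were taken from the mean of the other samples of the group. For the 30 genes their median was -0.92 in day 3 replicate 2 and -1.10 in day 5 replicate 2, where the median over all rows was 0.04 and 0.00. Day 5 replicate 2 was the lowest sample for 9 of 13 alpha chains, 6 of 8 beta chains and 8 of 9 laminins. The arrays of replicate 4 hybridised in duplicate differed by a median of 0.09 for these genes at day 0 and 0.14 at day 5 (median absolute difference), with highest differences of 0.60 and 1.38. The median deviation of replicate 4 from the mean of the other samples of its group was 0.53 at day 0 and 0.74 at day 5. Without day 3 and day 5 replicate 2 together, 8 of 35 genes passed at day 5 against day 0 (ITGA5, ITGA9, ITGA11, ITGAV and LAMA1 higher, ITGA6, LAMA2 and LAMC3 lower), against 9.92% of all rows, 4.93% higher and 4.99% lower. There were 3 of 35 at day 3 (ITGA5 and LAMB2 higher, ITGA6 lower), against 5.72%, 3.29% higher and 2.42% lower. At day 5 against day 1 there were 10 of 35 (9 higher and 1 lower), against 8.13%, 4.85% higher and 3.28% lower, and at day 1 against day 0 there were 0, against 0.660%. Leaving out both libraries was added after seeing the data. Each was the lowest of its group for most of these genes, so leaving it out raises the day 3 or day 5 mean of those genes. The cause of the low levels in replicate 2 was not tested.

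**Figure D4:**
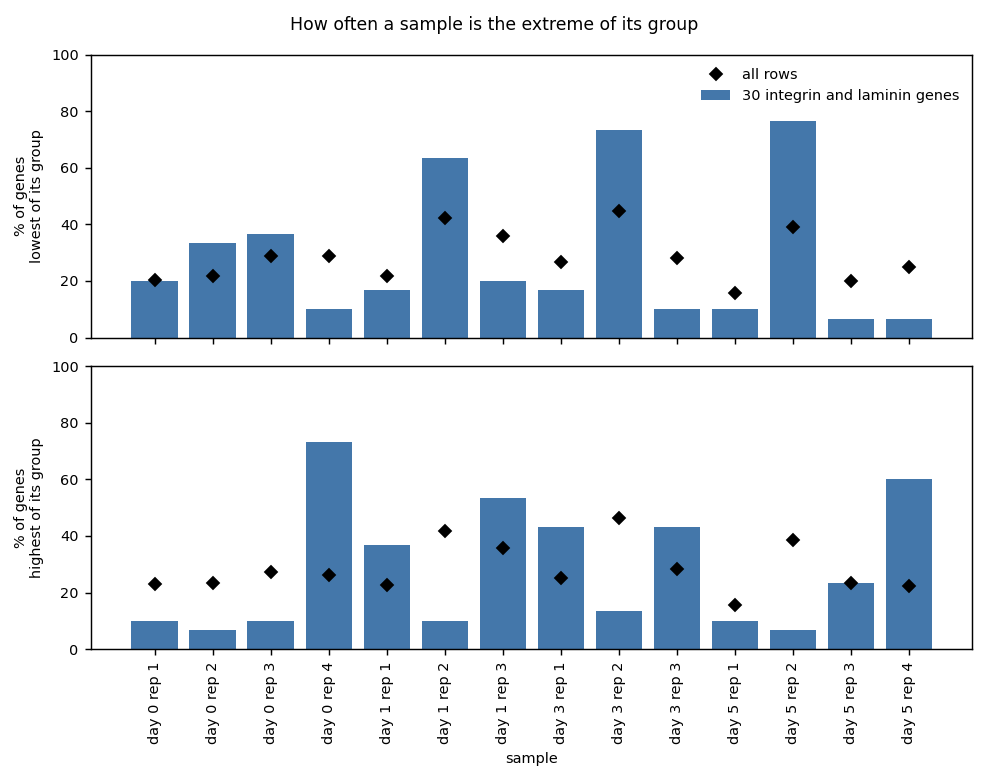
Share of genes for which a sample was the lowest (top) or the highest (bottom) of its group, in percent, for the 30 integrin and laminin genes (bars) and all rows (diamonds). Replicate 2 is the lowest for 19, 22 and 23 of the 30 genes at days 1, 3 and 5, and replicate 4 the highest for 22 at day 0 and 18 at day 5.

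Integrin adaptors, the proteins that couple beta chains to actin and to kinases, gave 1 gene higher and 1 lower of 24 measured (of 29 listed) at day 5, where 5.46% of all rows passed either way. FERMT1, a kindlin that binds beta chain tails and activates integrins, stood at 9.44, 9.46, 9.33 and 9.60 at day 0 and at 6.40, 5.12, 6.47 and 7.08 at day 5. In between it was at 8.52, 8.69 and 8.50 at day 1 and at 7.52, 8.50 and 7.12 at day 3. Its levels stepped down over the days without overlap with day 0, and FERMT1 fell by 3.19 ± 0.38 at day 5 (adjusted p 0.000666). From day 1 to day 5 FERMT1 fell by 2.30 ± 0.41 (0.00899). NEDD9, a docking protein of the focal adhesion kinase pathway, stood at 8.48, 8.21, 8.41 and 8.61 at day 0 and at 9.88, 9.50, 10.47 and 10.39 at day 5. It rose by 1.63 ± 0.34 (0.0126). Another kindlin, FERMT2, differed by 0.74 ± 0.29 (0.193), and 0.74 (0.0469) without day 3 replicate 2, when the counts were 2 higher and 2 lower of 24, against 8.73% of all rows. The median over the 24 adaptors was -0.10. Replicate 2 was the lowest sample for 20 of the 24 adaptors at day 3 and 18 at day 5 (44.8% and 39.0% of all rows), and replicate 4 the highest for 19 at day 0 (26.2%). At days 3 and 5 replicate 2 was the lowest for 11 and 9 of the 16 basement membrane partners, for 8 and 8 of the 17 other integrin ligands, and for 5 and 6 of the 9 other laminin receptors and surface partners described next.

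Partners of laminin in the basement membrane, such as nidogens and type IV collagens, gave 0 genes past limma of 16 measured (of 21 listed) at day 5, with a median of 0.24, where 5.46% of all rows passed. COL4A1, a main chain of the collagen IV network, differed by 1.51 ± 0.88 (adjusted p 0.438), and NID1, which links laminin to that network, by -1.07 ± 0.54 (0.348). Of the other integrin ligands, 1 of 17 measured (of 18 listed) rose and 0 fell, a share near the 5.46% of all rows. This was VCAM1, a ligand of ITGA4 and ITGA9, at 4.89, 4.14, 4.28 and 4.36 at day 0 and at 7.62, 9.37, 7.79 and 8.09 at day 5. It was still between 4.73 and 5.03 at day 3. VCAM1 rose by 3.80 ± 0.38 (0.000332), and its highest sample was day 5 replicate 2, in which 2 of the 30 integrin and laminin genes were highest (ITGA2B and ITGAL). Fibronectin itself, FN1, differed by 0.72 ± 0.79 (0.723). Without day 3 replicate 2, 1 of the 17 ligands was higher and 1 lower at day 5, against 8.73% of all rows. The lower was TGFBI, at -1.45 ± 0.40 (0.0431, and 0.0508 with all samples). The basement membrane partners then still gave 0 at day 5. At day 3 they gave 1 higher of 16, COL4A6 at 2.29 ± 0.52 (0.0339), against 3.19% of all rows. Other laminin receptors and integrin surface partners gave 0 past the test of 9 measured (of 10 listed), with a median of -0.29.

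**Figure D5:**
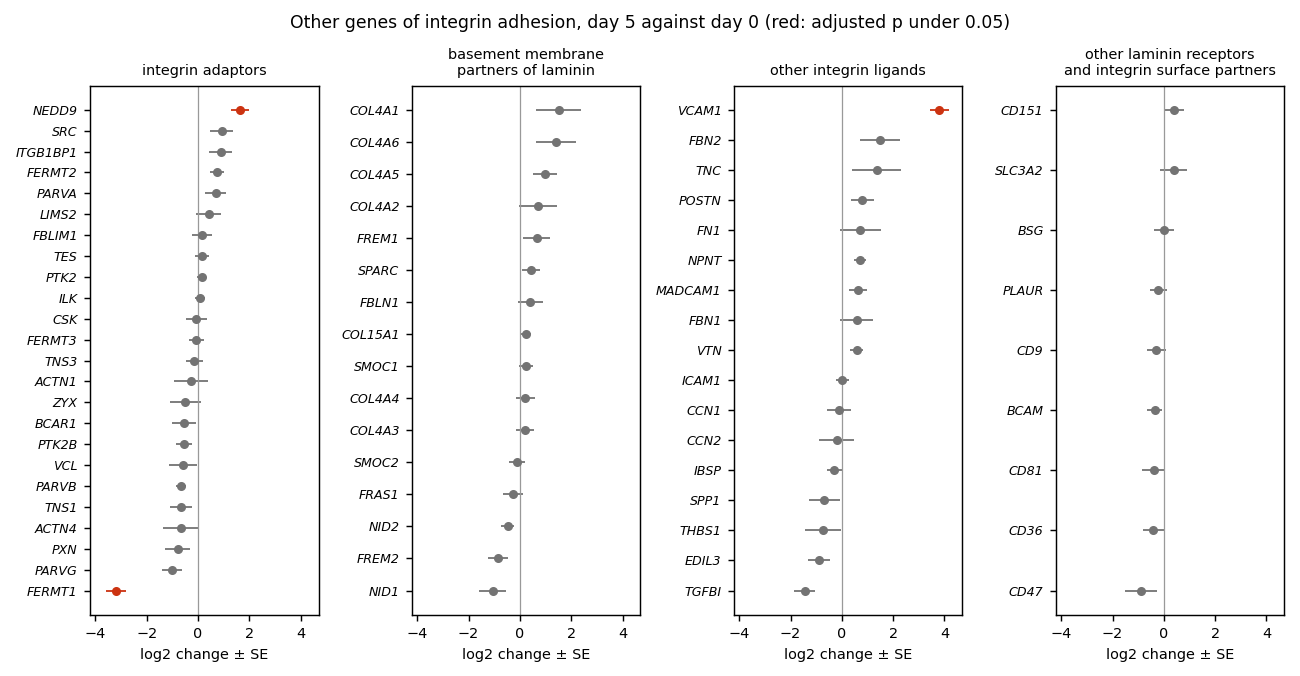
Log2 difference ± SE (limma) between day 5 and day 0 for the genes of 4 related lists, red where the adjusted p was under 0.05. FERMT1 at -3.19, NEDD9 at 1.63 and VCAM1 at 3.80 are the points that passed.

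Over the 14 samples, the genes whose levels followed those of ITGA5 most closely, of 14271 genes, were MMP14, a matrix-cleaving protease of the cell surface (Pearson r 0.983), CDH2, the N-cadherin gene (0.979), and EPHX1, an epoxide hydrolase (0.975). For ITGA6 they were JAG1, a Notch ligand (0.958), PARM1, a membrane mucin (0.955), and SGMS2, a sphingomyelin synthase (0.938). These values describe profiles in which the same samples, day 3 and day 5 replicate 2 among them, set much of the spread, and they were not tested.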

How the data were processed

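RNA of the 14 samples was measured on 16 arrays. The authors deposited 1 linear intensity per gene and array, and per the submitters' processing notes the genome build was hg18. How they corrected the background, summarised probes and normalized arrays was not given in the sources used here. Array medians lay between 245.1 and 246.3, and 636 values were below 0, the lowest at -0.273. Arrays have no read depth, and their number limits the precision.

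Intensities were taken to log2 after adding 1, which compresses differences of dim genes, and technical arrays of replicate 4 were averaged (avearrays). Group differences were fitted over all 18495 rows with lmFit and eBayes of limma 3.58.1 (R 4.3.3) with 10 residual and 3 prior degrees of freedom. Adjustment (Benjamini-Hochberg, threshold 0.05) ran over all rows. Rows were named through the platform annotation, of which 14577 carry 1 symbol, 2849 several and 1069 none. Where a gene had several rows of its own, the highest mean was taken. ITGAX has a brighter row that it shares with ITGAM, so its own row was used.

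Per-sample values are given for genes past the test, ITGA5, ITGA6 and the 3 largest day 5 differences of each family. LAMB4, among the latter, is described in the text by its extremes only. Of each further list up to 3 genes past the test with the largest day 5 change fall under the naming rule, and other genes were named after their values were seen. The members and lists were chosen with earlier results of these data known. Code was tested on simulated data. The numbers of biological replicates are shared between days, but correlations of the deviations of same-numbered samples ran from -0.284 to 0.645. They were over 0.1 in each pair of day 1 with day 3 (0.188 to 0.509), which were not compared, but not in each pair of any comparison made, so the numbers were not taken as pairs. Promoter windows came from RefSeq (GRCh38.p14). Tables were made with pandas 2.3.3 and numpy 2.4.6 under Python 3.11.15, and plots with matplotlib 3.10.9. Alternatives covered pseudocount, filter, scaling, technical arrays, samples fitted, replicate block, array weights, thresholds and each sample left out.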

Additional observations from a re-analysis of the deposited data

Results flagged for a closer look

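In 60 groups of 4 samples tested for a sample far from the others (30 genes at days 0 and 5), 3 were found, where chance alone gives about 1 in 20. ITGA9 stood at 8.76 in day 0 replicate 4, against 7.79 to 7.92 in the other day 0 samples. ITGB7 stood at 4.84 in day 0 replicate 4, against 4.47 to 4.53. LAMB4 was listed at -0.46 in day 0 replicate 2, the lowest value of the table, against 3.16 to 3.64.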

How the results depend on the processing

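Of 3440 values of single genes under other settings, 3316 stayed on their side of the threshold and, where not past it, within 1 SE. Another 42 moved by more, 56 passed where they had not, 26 no longer passed, and 0 values past the threshold turned sign. Values past it in neither setting turned sign in 114 cases, 7 of them genes at day 3 without day 3 replicate 2. Array weights (the gene by gene method) raised the number of genes past the test from 0 to 5 of 35 at day 1 against day 0, from 0 to 6 for day 3, from 2 to 8 for day 5 and from 1 to 12 for day 5 against day 1, where 4.76%, 12.7%, 15.9% and 20.7% of all rows passed. Leaving out day 3 and day 5 replicate 2 together, an alternative added after seeing the data, gave 0, 3, 8 and 10. The fit of only the 2 groups compared gave 1 at day 5 against day 0 and 0 at day 5 against day 1. At day 5 against day 0, a variance trend with robust eBayes gave 1, an adjusted p of 0.01 gave 0 and a change of at least 2-fold gave 1. At day 5 against day 1, an adjusted p of 0.01 gave 0. Leaving out 1 sample at a time gave 0 to 0 genes for day 1, 0 to 1 for day 3, 0 to 3 for day 5 (all against day 0) and 0 to 4 for day 5 against day 1, with 1, 3 and 4 reached without day 3 replicate 2. With the replicate block 3 genes passed at day 5 against day 0 (LAMC3 with ITGA6 and LAMA2) and 3 at day 5 against day 1, ITGB3 and LAMC3 among them. The cause of these differences was not tested. Pseudocount, filter, normalization, technical array and row choices left these counts as they were. Signals among the dimmest 25% of rows, LAMB4 above all, limit the size of differences.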
